A study of Caenorhabditis elegans with 20 samples.

Results

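In *C. elegans*, 5 genes were followed through all 20 RNA-seq libraries of the study: the 4 genes that encode the propionate shunt after its first step, namely ech-6, hach-1, hphd-1, and then alh-8, and dhgd-1, which encodes the D-2-hydroxyglutarate (D-2HG) dehydrogenase. They were chosen by name, with WormBase identifiers matched to these symbols, and make up 5 of the 22736 genes in the table. All 5 passed the low-count filter that left 11270 genes for testing. RNA came from the bodies of day-1 gravid adults on *E. coli* OP50, collected without their embryos, with many worms pooled per sample. The 4 groups were N2 wild type and the Δdhgd-1 mutants, in both cases without supplement and with 64 nM adenosylcobalamin (vitamin B12), with 5 biological replicates per group numbered 1, 2, 5, 6 and 7. The mutants carry the single allele dhgd-1(tm6671), a large deletion at the 5′ end of the gene, and were backcrossed to N2. The labels give no other difference between the groups.

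Propionate is made when animals break down valine, isoleucine, methionine and odd-chain fatty acids, and it is toxic when it builds up. The canonical route needs vitamin B12 as a cofactor. When the vitamin is scarce, *C. elegans* transcribes the genes of a vitamin B12-independent propionate shunt, and when the vitamin is plentiful these genes are repressed. After acdh-1, the acyl-CoA dehydrogenase of the first step, the enoyl-CoA hydratase ECH-6 and the hydrolase HACH-1 yield 3-hydroxypropionate. HPHD-1 oxidizes this to malonic semialdehyde and in the same reaction reduces 2-oxoglutarate to D-2HG. ALH-8 carries malonic semialdehyde on toward acetyl-CoA, and DHGD-1 returns D-2HG to 2-oxoglutarate.

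The libraries were made with Cel-seq2, which counts transcripts near their 3′ end, and libraries held between 2837943 and 15457950 counts. Values below are CPM, the share of a library's total count scaled to a sum of 1000000, always given in the order of replicates 1, 2, 5, 6 and 7. A gene counted as called when edgeR's quasi-likelihood test gave it an adjusted p (Benjamini-Hochberg over the 11270 genes) under 0.05 and its fold change was over 1.5. Library names form 2 series, replicates 1 and 2 against replicates 5, 6 and 7, and the series was a term of the model. Between the series 38.9% of all genes were called, among them hach-1 and hphd-1, with log2 fold changes of -0.79 (standard error 0.18, edgeR adjusted p = 0.000749) and -0.86 (standard error 0.21, edgeR adjusted p = 0.00184) in replicates 5, 6 and 7. Markers of the intestine were present in every library, at 1031 to 5011 summed CPM over 6 genes. Those of sperm reached at most 10.02 and those of embryos at most 1.502 summed CPM. In RNA of whole bodies, fewer cells that express a gene and less RNA per cell cannot be told apart.

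The first gene downstream of acdh-1 is ech-6 (WBGene00001155, WBcel235 chromosome III, 9751552 to 9752883, minus strand). In wild-type animals its levels were 659.8, 460.2, 502, 435 and 535 CPM without supplement and 124, 145, 154, 79.7 and 127 CPM with vitamin B12. In Δdhgd-1 mutants they were 535, 555, 365, 461 and 424 CPM without supplement and 169.9, 305, 268, 196 and 169 CPM with vitamin B12. In both strains every supplemented library lay below every unsupplemented one. Without supplement the strains overlapped, and with vitamin B12 every mutant library lay above every wild-type library, as was so for 0.524% of all genes. The group means, in ascending order, were 126 ± 28.7 CPM in wild type with vitamin B12, 221 ± 61.5 in mutants with vitamin B12, 468 ± 78.5 in mutants and 519 ± 87.8 in wild type (SD, n = 5). Of the neighbours in this order, only supplemented and unsupplemented mutants passed the test (log2 fold change -1.03, standard error 0.19, edgeR adjusted p = 0.00243).

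HACH-1 releases 3-hydroxypropionate from its CoA ester (hach-1, WBGene00017301, chromosome III, 5555450 to 5557318, plus strand). Wild-type libraries held 392, 594, 268, 282 and 323 CPM of hach-1 without supplement and 80.3, 132, 109, 49.996 and 64.4 CPM with vitamin B12. Mutant libraries held 1204, 942, 425, 369.6 and 458 CPM without supplement and 311, 371, 287, 179.7 and 95.5 CPM with vitamin B12. The unsupplemented mutants thus fell into replicates 1 and 2, above every other library, and replicates 5, 6 and 7, within the range of the 5 unsupplemented wild-type libraries. Among replicates 5, 6 and 7 alone, the mutants (425, 369.6 and 458 CPM) lay above every wild-type library (268, 282 and 323 CPM). The means were 87.1 ± 33.2, 249 ± 110.2, 372 ± 133 and 679.8 ± 372 CPM (SD, n = 5) in supplemented wild type, supplemented mutants, wild type and mutants, in ascending order. Only the lowest pair of neighbours passed the test, mutants being 2.66-fold higher than wild type with vitamin B12 (log2 fold change 1.41, standard error 0.25, edgeR adjusted p = 0.00450).

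HPHD-1 is the step that makes D-2HG (hphd-1, WBGene00012608, chromosome II, 12994354 to 12996571, minus strand). Levels of hphd-1 in wild type were 151, 133, 86.8, 107 and 76.1 CPM, and 22.6, 13.7, 16.9, 6.33 and 4.51 CPM with vitamin B12. In mutants they were 298, 194, 111, 97.1 and 129 CPM, and 81.9, 86.8, 61.2, 38.9 and 19.5 CPM with vitamin B12. Supplemented and unsupplemented libraries were separate in both strains. Among supplemented libraries, 4 of the mutant ones lay above every wild-type one, and mutant replicate 7 fell between the highest and the next wild-type value. The order of the means was the same as for hach-1, with 12.804 ± 7.47, 57.7 ± 28.5, 111 ± 31.2 and 166 ± 82.5 CPM (SD, n = 5). Again only the lowest neighbours passed the test, with mutants 4.28-fold higher than wild type with vitamin B12 (log2 fold change 2.10, standard error 0.31, edgeR adjusted p = 0.000493).

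The last shunt step is encoded by alh-8 (WBGene00000114, chromosome II, 11729055 to 11731198, plus strand). Its levels in wild type were 785, 606, 722, 464 and 446 CPM without supplement and 355, 402, 408, 225 and 138 CPM with vitamin B12. In mutants they were 1188, 906, 656, 665 and 607 CPM without supplement and 716, 636, 506, 358 and 339 CPM with vitamin B12. Only vitamin B12 in wild type gave groups that did not overlap. The means rose in the same order as for hach-1 and hphd-1, from 306 ± 119.2 through 511 ± 166 and 605 ± 151 to 804 ± 244 CPM (SD, n = 5), and no 2 neighbours differed by the test, with edgeR adjusted p-values of 0.426, 0.795 and 0.700 from the lowest pair to the highest. At its 3′ end alh-8 overlaps F13D12.8 on the opposite strand, which held 361 counts over all 20 libraries. Whether counting used the strand is not given in the sources used here.

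The dehydrogenase gene itself, dhgd-1 (WBGene00010055, chromosome II, 11538895 to 11552081, minus strand), gave 23 to 459 counts per library. Wild-type libraries held 27.9, 28.8, 21.8, 15.1 and 16.9 CPM of dhgd-1 without supplement and 8.10, 7.53, 9.21, 5.87 and 8.45 CPM with vitamin B12. Mutant libraries held 51.8, 59.3, 33.1, 18.2 and 25.9 CPM without supplement and 11.003, 18.8, 22.5, 13.1 and 5.86 CPM with vitamin B12. The gene carrying the deletion was therefore still counted in all 10 mutant libraries. It was above the mean of the 5 wild-type libraries of the same supplement condition in 4 of 5 unsupplemented and 4 of 5 supplemented mutant libraries. Cel-seq2 counts transcripts near their 3′ end and the deletion is at the 5′ end, so dhgd-1 counts were not used to check strain labels. Where the reads lay relative to the deletion was not tested. The means, 7.83 ± 1.25, 14.2 ± 6.52, 22.1 ± 6.20 and 37.7 ± 17.3 CPM (SD, n = 5), had the order of hach-1, hphd-1 and alh-8. None of the 3 neighbouring pairs passed the test (edgeR adjusted p of 0.5002, 0.449 and 0.324 from the lowest to the highest).

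**Figure D1:**
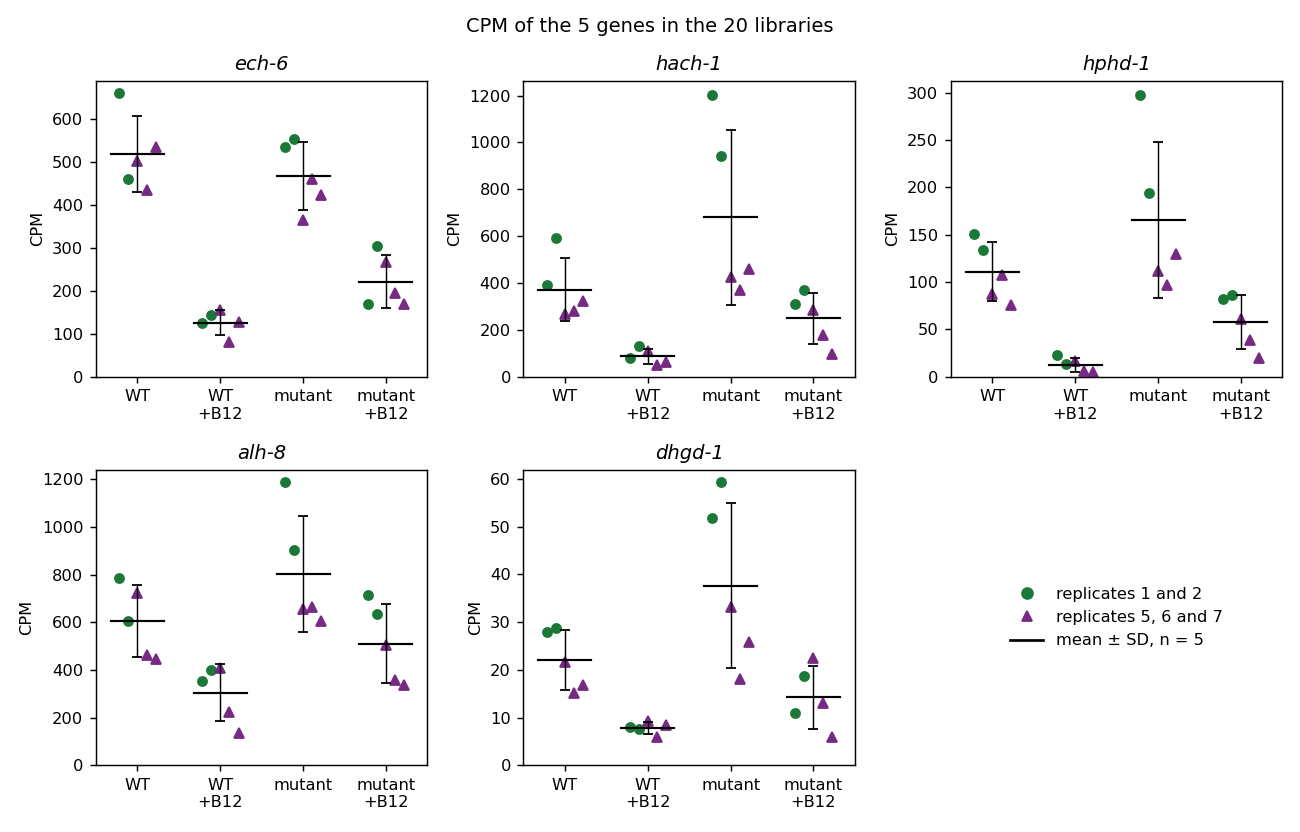
CPM (vertical axis, linear from 0) of the 5 genes in each of the 20 libraries by group; circles are replicates 1 and 2, triangles replicates 5, 6 and 7, and bars the mean ± SD (n = 5). Supplemented wild type has the lowest mean for each of the 5 genes, and the mutant hach-1 values of 1204 and 942 CPM stand above all others of that gene.

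By the main model, vitamin B12 in wild-type animals was the only comparison in which all 5 genes were called. With the replicate number as a block, all 5 were also called for vitamin B12 in mutants. In wild type all 5 genes were called lower by the main model, against 0.674% of all genes called lower. For all 5 genes the wild-type groups did not overlap, against 0.639% of all genes with supplemented libraries wholly below. The median log2 fold change was -2.08 over the 5 genes and -0.03 over all genes tested. The steps did not fall alike. The level left with vitamin B12 was 11.6% of the unsupplemented mean for hphd-1, 23.4% for hach-1, 24.3% for ech-6, 35.4% for dhgd-1 and 50.5% for alh-8. By replicate number, hphd-1 had the largest fall of the 5 in 5 of 5 pairs, and alh-8 the smallest in 4 of 5. For acdh-1, the first step, 4.35% was left (log2 fold change -4.53, standard error 0.51, edgeR adjusted p = 3.55e-06). The fall of dhgd-1 was 1.47 on the log2 scale (standard error 0.29, edgeR adjusted p = 0.00588; 5 of 5 pairs lower), and that of alh-8 was 1.03 (standard error 0.23, edgeR adjusted p = 0.0148). Without replicate 2 the calls of dhgd-1 (edgeR adjusted p = 0.0619) and alh-8 (0.0547) were lost, and that of alh-8 also without replicate 1 (0.0983) or 6 (0.106), in a model without the series term (0.147) and in a fit of the 2 groups alone (0.134). Within replicates 1 and 2 the log2 fold change was -1.82 for dhgd-1 and -0.84 for alh-8, and within replicates 5, 6 and 7 it was -1.26 and -1.13, with neither gene called in either series.

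Vitamin B12 in Δdhgd-1 mutants lowered ech-6, hach-1, hphd-1 and dhgd-1 but not, by the test, alh-8. These are 4 of 5 genes called lower, against 1.02% of all genes, with a median of -1.26 over the 5 genes and 0.01 over all genes. For ech-6 and hphd-1 the groups did not overlap, against 1.56% of all genes wholly lower, and all 5 genes were lower in 5 of 5 same-numbered pairs, against 11.4%. The level left was 34.8% for hphd-1, 36.6% for hach-1, 37.8% for dhgd-1, 47.3% for ech-6 and 63.5% for alh-8. The log2 fold changes were -1.47 for hphd-1 (standard error 0.30, edgeR adjusted p = 0.00578) and -1.33 for hach-1 (standard error 0.25, edgeR adjusted p = 0.00317). For alh-8 the value was -0.62 (standard error 0.23, edgeR adjusted p = 0.247). With the replicate number as a block alh-8 was called (-0.64, edgeR adjusted p = 0.0377). It was also called in a fit of the 2 groups alone (-0.62, edgeR adjusted p = 0.0277). The gene dhgd-1 changed by -1.26 (standard error 0.28, edgeR adjusted p = 0.0155). Its falls by replicate number were uneven, at -2.23, -1.66, -0.56, -0.47 and -2.14 on the log2 scale for replicates 1, 2, 5, 6 and 7. The call of dhgd-1 was lost without replicate 1 (edgeR adjusted p = 0.143) or 2 (0.108), and also without the single library of mutant replicate 2 (0.0511) or supplemented mutant replicate 1 (0.0650), and in a fit of the 2 groups alone (0.0613). Without the series term only ech-6 was called, and hach-1, hphd-1 and dhgd-1 had edgeR adjusted p-values of 0.0681, 0.111 and 0.0525. Within replicates 1 and 2 dhgd-1 stood at -1.93 and within replicates 5, 6 and 7 at -0.84, called in neither. Within the series, ech-6, hach-1 and hphd-1 ranged from -0.94 to -1.67, also without a call.

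Without supplement, loss of dhgd-1 left the 5 genes without a call, against 2.81% of all genes. At an unadjusted p under 0.05, 2 of the 5 passed, hach-1 and dhgd-1, against 15.1% of all genes, and with DESeq2 0 of 5 were called. The deleted gene dhgd-1 was 1.497-fold higher in mutants (log2 fold change 0.58, 95% interval 0.01 to 1.16, edgeR adjusted p = 0.324) and hach-1 1.56-fold higher (0.64, 95% interval 0.13 to 1.15, edgeR adjusted p = 0.197). Both were higher in 5 of 5 same-numbered pairs, as were 12.4% of all genes. For ech-6 the log2 fold change was -0.29 (95% interval -0.68 to 0.10, edgeR adjusted p = 0.515). The median was 0.36 over the 5 genes and -0.03 over all genes. Normalization by library totals alone shifted the median of all genes in this comparison by 0.13, and of the genes it called 79.0% were higher, against 64.7% with TMM. Within replicates 1 and 2, hach-1 stood at 1.07 and dhgd-1 at 0.91, and within replicates 5, 6 and 7 at 0.40 and 0.39, none of them called.

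With vitamin B12 in both strains, hach-1 and hphd-1 were called higher in mutants, 2 of 5 genes against 0.346% of all genes, with a median of 0.80 over the 5 genes and 0.01 over all genes. Not called were ech-6 at 0.77 (standard error 0.19, edgeR adjusted p = 0.0659), alh-8 at 0.65 (standard error 0.23, edgeR adjusted p = 0.426) and dhgd-1 at 0.80 (standard error 0.29, edgeR adjusted p = 0.5002). All but dhgd-1 were higher in 5 of 5 same-numbered pairs, as were 8.27% of all genes, and dhgd-1 was higher in 4 of 5. With the replicate number as a block ech-6 (0.76, edgeR adjusted p = 0.0366) and alh-8 (0.70, edgeR adjusted p = 0.0492) were called too. The call of hach-1 was lost without replicate 2 (edgeR adjusted p = 0.0606), without replicate 6 (0.0523) and without the series term (0.136), whereas ech-6 was called with DESeq2 (DESeq2 adjusted p = 0.00719), without the low-count filter (edgeR adjusted p = 0.0368) and without the single library of supplemented wild-type replicate 5 (0.0374) or supplemented mutant replicate 1 (0.0222). Within replicates 1 and 2 and within replicates 5, 6 and 7, hphd-1 stood at 2.12 and 2.09 and hach-1 at 1.58 and 1.33, none of them called within a series.

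**Figure D2:**
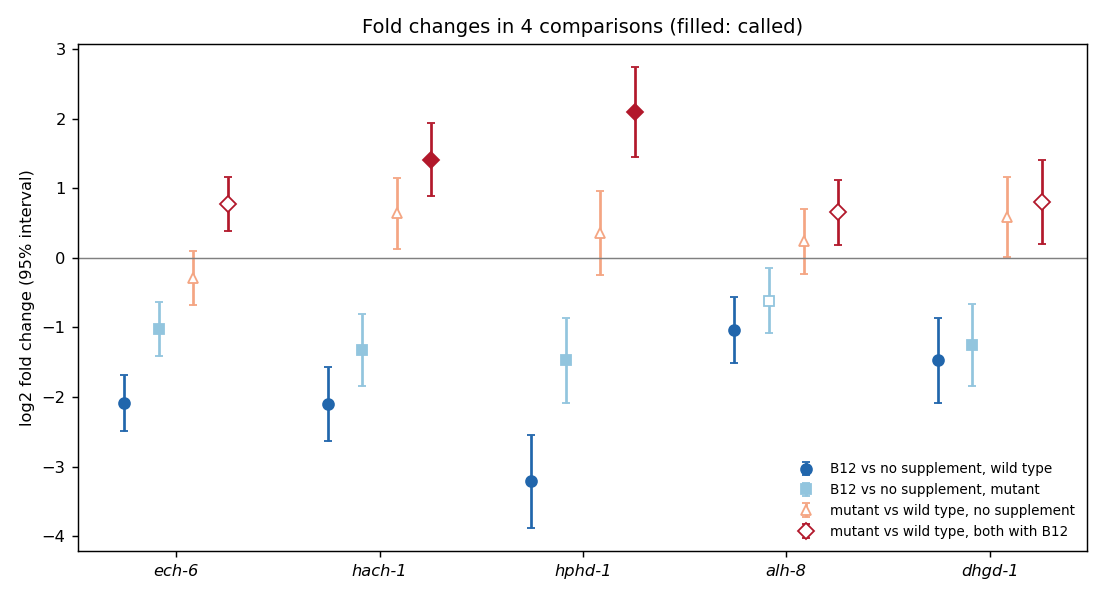
Log2 fold changes (vertical axis) of the 5 genes in 4 comparisons, with 95% intervals from edgeR's model of all 20 libraries; filled symbols were called and open ones were not. All 5 genes lie below 0 for vitamin B12 in wild type, and hphd-1 has both the lowest value (-3.21) and the highest (2.10).

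Whether vitamin B12 acted differently in the 2 strains was tested as an interaction (adjusted p under 0.05, no fold minimum), for which 0 of 5 genes were called, against 0.0444% of all genes. At an unadjusted p under 0.05 ech-6, hach-1 and hphd-1 passed, against 4.09% of all genes. The log2 differences were 1.74 for hphd-1 (standard error 0.42, edgeR adjusted p = 0.281), 1.06 for ech-6 (standard error 0.27, edgeR adjusted p = 0.281) and 0.22 for dhgd-1 (95% interval -0.61 to 1.04, edgeR adjusted p = 0.999). With DESeq2 ech-6 passed (DESeq2 adjusted p = 0.0427), and without the low-count filter hphd-1 did (edgeR adjusted p = 0.000108). By replicate number the vitamin B12 effect was less negative in mutants in 5 of 5 for each of the 4 shunt genes, as it was for 4.61% of all genes, and in 3 of 5 for dhgd-1. Against unsupplemented wild type, supplemented mutants were called lower only for ech-6 (1 of 5 genes, against 0.772% of all genes), at -1.32 on the log2 scale (standard error 0.19, edgeR adjusted p = 0.000116). The value of hphd-1 in this comparison was -1.11 (standard error 0.30, edgeR adjusted p = 0.0511), and it was called with the replicate number as a block (-1.17, edgeR adjusted p = 0.00660), without replicate 5 (-1.30, edgeR adjusted p = 0.0293) and without supplemented mutant replicate 5 alone (edgeR adjusted p = 0.0345). For hach-1, alh-8 and dhgd-1 it was -0.69, -0.38 and -0.67 (edgeR adjusted p of 0.265, 0.795 and 0.449). These comparisons share their groups of libraries and are not independent of one another.

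The steps were next compared within libraries, through the log2 ratio of the counts of 2 genes, which does not depend on how a library is scaled. All 10 pairs of genes were tested in 4 comparisons by an exact two-sided permutation test that exchanged groups within the series (120 arrangements, smallest possible p = 0.0167). Of the 40 tests, 0 passed after Benjamini-Hochberg adjustment (smallest adjusted value 0.0741). With so few arrangements, a test could pass this adjustment only if many of the 40 reached the smallest possible p. The adjusted values therefore cannot decide on single ratios. The unadjusted p was under 0.05 for 7 of 10 ratios for vitamin B12 in wild type, 2 of 10 for vitamin B12 in mutants, and 4 of 10 in each comparison of the strains.

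In wild type, the ratio of hphd-1 to alh-8 went from -2.46 ± 0.38 to -4.70 ± 0.45 with vitamin B12 (SD, n = 5), a difference of -2.24 that was lower in 5 of 5 same-numbered pairs (exact permutation p = 0.0167, adjusted 0.0741). In mutants the same ratio went from -2.36 ± 0.31 to -3.27 ± 0.49 (SD, n = 5), a difference of -0.92, again lower in 5 of 5 (exact permutation p = 0.0167, adjusted 0.0741). The ratio of hphd-1 to dhgd-1, the genes that make and remove D-2HG, went from 2.32 ± 0.32 to 0.48 ± 0.91 in wild type (SD, n = 5), lower in 5 of 5 pairs with a difference of -1.84 (exact permutation p = 0.0167, adjusted 0.0741). In mutants the dhgd-1 counts come from the gene that carries the deletion, and the ratio does not measure the making or removal of D-2HG. The mutant ratio was 2.14 ± 0.38 without and 1.97 ± 0.59 with vitamin B12 (SD, n = 5), a difference of -0.18 that was lower in 3 of 5 pairs (exact permutation p = 0.567). The shift of hphd-1 against dhgd-1 was more negative in wild type for 5 of 5 replicate numbers, by a mean of 1.67 ± 0.62 (SD, n = 5). An exact sign-flip permutation over 5 numbers gave p = 0.0625 for it, the smallest such a test allows. Such a shift was not particular to this pair. The same sign in 5 of 5 and the same p were found for hphd-1 to alh-8 (mean 1.32, mutant minus wild type). This also held for ech-6 and hach-1 to hphd-1 (-0.76 and -1.03) and for both against dhgd-1 (0.91 and 0.63). The ratio of alh-8 to dhgd-1 had no unadjusted p under 0.05 in any of the 4 comparisons, with differences from -0.28 to 0.74.

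Between the strains without supplement, the 4 ratios with an unadjusted p under 0.05 were those of ech-6 to each other gene, and all were lower in mutants. The difference was -0.92 against hach-1 and -0.55 against alh-8, both lower in 5 of 5 pairs (exact permutation p = 0.0167 and 0.0333, adjusted 0.0741 and 0.0784). It was -0.83 against dhgd-1 and -0.65 against hphd-1. With vitamin B12, 3 of the 4 ratios with an unadjusted p under 0.05 held hphd-1. Its ratio was higher in mutants by 1.42 against alh-8 and by 1.49 against dhgd-1, and the ratio of ech-6 to hphd-1 was lower by 1.41, each in 5 of 5 pairs (exact permutation p = 0.0167 each, adjusted 0.0741). The fourth was hach-1 to dhgd-1, higher in mutants by 0.72 in 5 of 5 pairs (exact permutation p = 0.0167, adjusted 0.0741). The ratio of hach-1 to hphd-1 was lower by 0.77 in 4 of 5 pairs (exact permutation p = 0.05).

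**Figure D3:**
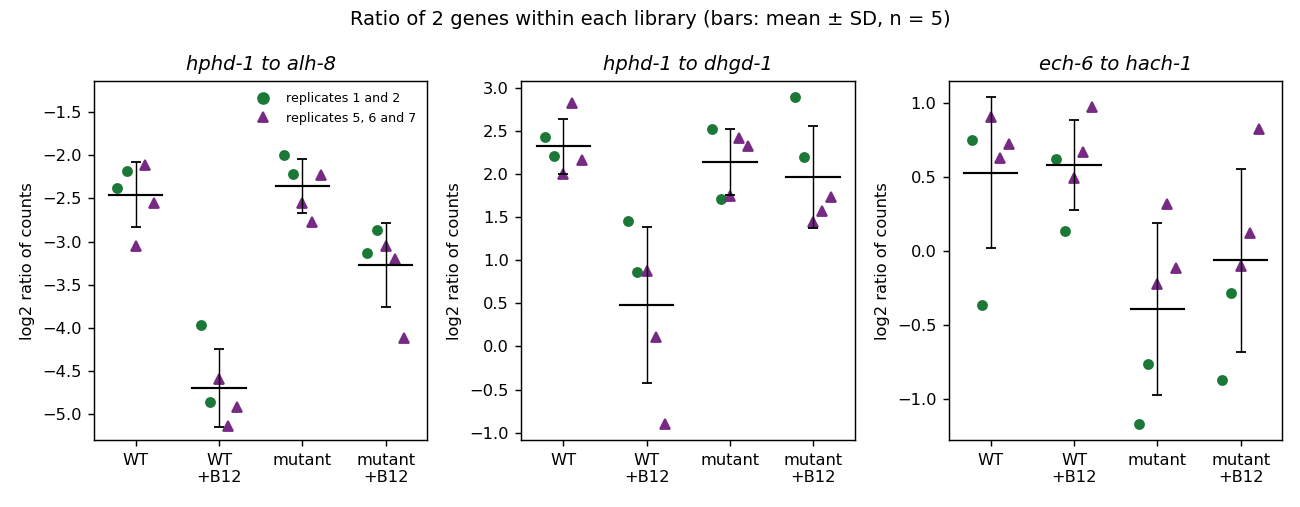
Log2 ratio of the counts of 2 genes within each library (vertical axis), by group; circles are replicates 1 and 2, triangles replicates 5, 6 and 7, and bars the mean ± SD (n = 5). The ratio of hphd-1 to dhgd-1 averages 0.48 in supplemented wild type and 1.97 to 2.32 in the other groups.

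Covariation was measured on log2 CPM centred on the mean of each group and series, which removes mean levels but not differences in spread. Large deviations remained in supplemented libraries: hach-1 and hphd-1 stood at 0.61 and 1.06 in supplemented wild-type replicate 5. They stood at 0.70 and 0.71 in supplemented mutant replicate 5 and at -0.87 and -0.92 in supplemented mutant replicate 7. An uneven vitamin B12 effect can thus enter r, and its part was not tested. Over the 20 libraries all 10 pairs of genes had a positive Pearson r, from 0.31 to 0.75. This sign was not kept by every pair: with centring on group and replicate number, the block, alh-8 with dhgd-1 turned to r = -0.30, and without replicate 5 it was -0.10 and ech-6 with alh-8 was -0.12. The highest were hphd-1 with alh-8 (r = 0.75, Spearman's rho = 0.52, permutation p = 0.0326 and 0.0893), hach-1 with dhgd-1 (r = 0.71, rho = 0.44, permutation p = 0.0291 and 0.0953) and hach-1 with hphd-1 (r = 0.69, rho = 0.44, permutation p = 0.0744 and 0.192). After adjustment over the 10 pairs 0 passed, with a smallest adjusted p of 0.134 for r and 0.207 for rho. Leaving out the 2 libraries farthest from the median of the first gene gave r = 0.65 for hphd-1 with alh-8, 0.30 for hach-1 with dhgd-1 and 0.49 for hach-1 with hphd-1, so that hach-1 with dhgd-1 rests largely on those 2 libraries. With the block, these pairs in the same order had r = 0.53, 0.60 and 0.66 (permutation p = 0.193, 0.142 and 0.00786, the last adjusted to 0.0786). Same-numbered libraries share deviations, and the permutation did not keep them together. Its p-values, with or without the block, may therefore be too small.

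Within each series the values were as follows, and 9 of the 10 pairs had the higher r within replicates 5, 6 and 7. Within replicates 5, 6 and 7, r was 0.89 for hach-1 with hphd-1, 0.83 for hach-1 with dhgd-1, 0.80 for ech-6 with hach-1 and 0.79 for hphd-1 with alh-8, over 12 libraries. Within replicates 1 and 2, over 8 libraries that centring turns into mirrored pairs, the same 4 values were -0.31, 0.13, 0.07 and 0.37. The pair ech-6 with dhgd-1 went the other way, with r = 0.77 within replicates 1 and 2 and 0.54 within replicates 5, 6 and 7. The difference between the series was not tested. For dhgd-1, 16 of the 11269 other genes (0.142%) had a higher r than hach-1 had, whereas for alh-8, which correlated with many genes, 27.95% had a higher r than ech-6 and 30.8% than dhgd-1. No correlation of a gene with library depth or summed tissue markers passed adjustment over 40 relations. The smallest p among the markers was that of hphd-1 with the intestine markers (r = 0.70, rho = 0.61, permutation p = 0.0403, adjusted 0.736), and alh-8 had r = 0.71 with them (permutation p = 0.124, adjusted 0.736; 0.29 without the 2 farthest libraries), 0.71 with body wall muscle markers, 0.65 with germline markers and 0.54 with hypodermis markers. The part of tissue makeup in the covariation was not tested further.

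**Figure D4:**
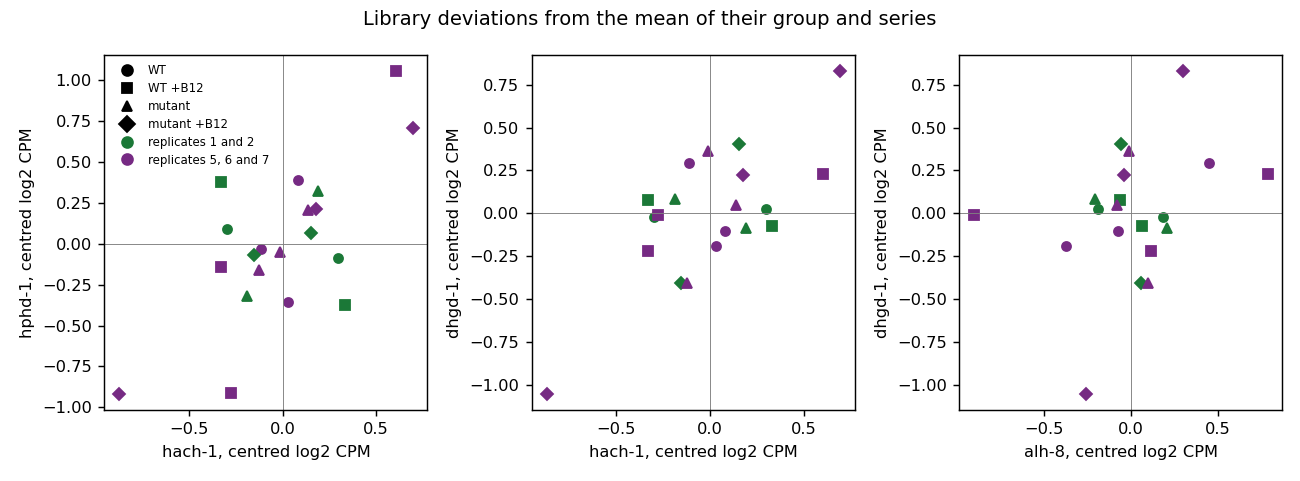
Deviations of log2 CPM from the mean of each group and series for 3 pairs of genes (both axes in log2 units), 1 point per library; shape gives the group and colour the series. The points spread along a rising line for hach-1 with hphd-1 (r = 0.69) and less so for alh-8 with dhgd-1 (r = 0.31), with 2 supplemented mutant libraries at the ends for hach-1 with dhgd-1.

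The genes whose library-to-library pattern was most like each member were sought among the 9279 tested genes whose mean count reached 20, by the same centred r over 20 libraries. For hphd-1 they were acdh-1 (r = 0.87), skr-15 (0.87) and F17H10.1 (0.84). For dhgd-1 they were C09B8.4 (0.91), slr-2 (0.83) and nasp-1 (0.82). For ech-6 they were tyms-1 (0.83), folt-2 (0.78) and acdh-1 (0.78), for hach-1 acdh-2 (0.84), unc-59 (0.84) and ceh-38 (0.82), and for alh-8 T06D4.1 (0.96), deb-1 (0.93) and mboa-6 (0.92). Of these 14 genes, 5 were called lower with vitamin B12 in both strains, against 0.444% of all genes: acdh-1, acdh-2, folt-2, F17H10.1 and C09B8.4. The 14 genes were chosen by their pattern in these same libraries, and the share is over all 11270 tested genes. The count is therefore a description and no independent support. The log2 fold change of C09B8.4 was -4.44 in wild type (edgeR adjusted p = 3.72e-05) and -2.38 in mutants (edgeR adjusted p = 0.00814), and between the supplemented strains it was 3.10 (edgeR adjusted p = 0.00792). For acdh-2 the values were -4.25 (edgeR adjusted p = 4.00e-06), -1.91 (edgeR adjusted p = 0.0102) and 3.64 (edgeR adjusted p = 0.000104). The partners of alh-8 were called in none of the 6 comparisons.

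Other genes around the shunt were counted from lists. Of the 6 genes of the canonical propionate pathway (pcca-1, pccb-1, mce-1, mmcm-1, mmaa-1 and mmab-1), 0 were called for vitamin B12 in either strain, a count that the shares of all genes called lower (0.674% in wild type and 1.02% in mutants) would also give. In supplemented mutants against unsupplemented wild type mmaa-1 was lower (log2 fold change -0.86, edgeR adjusted p = 0.0145). Of the shunt regulators nhr-10 and nhr-68, which encode nuclear hormone receptors, nhr-68 was lower with vitamin B12 in wild type (log2 fold change -1.10, edgeR adjusted p = 0.0418). It stood at -0.89 in mutants (edgeR adjusted p = 0.122). The 3 genes of the electron transfer flavoprotein and its dehydrogenase (F23C8.5, F27D4.1 and let-721), which accept electrons from acyl-CoA dehydrogenases, and the 2 genes of neighbouring valine and beta-alanine steps (gta-1 and B0250.5) were called in none of the 6 comparisons. For so few genes the shares of all genes called would also give 0. With vitamin B12, F23C8.5 and F27D4.1 were lower in 5 of 5 same-numbered pairs in both strains, as were 11.4% of all genes in mutants. Their log2 fold changes were -0.57 and -0.58 in wild type and -0.50 and -0.40 in mutants. By log2 fold change let-721 and B0250.5 also stood lower in both strains, and gta-1 stood higher. The first step, acdh-1, held 193 to 373 CPM in wild type and 214 to 428 CPM in mutants, and 5.82 to 30.2 and 14.5 to 112 CPM with vitamin B12. With vitamin B12 in both strains, mutants had 4.83-fold more acdh-1 than wild type (log2 fold change 2.27, standard error 0.47, edgeR adjusted p = 0.0165).

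The annotation gives dhgd-1 2 transcripts, one from 11538904 to 11540630 with 4 exons, and one that adds a far 5′ exon and ends at 11552081. The intron that follows that exon spans 4 protein-coding genes, gtf-2E2, F54D5.9, dnj-13 and F54D5.7, and ncRNA genes. Of these, gtf-2E2, the gene of a general transcription factor subunit, lies on the same strand (11540773 to 11542495), 142 bases upstream of the shorter dhgd-1 transcript, and it is named here after its values were seen. Its levels were 21.6, 18.9, 22.7, 20.3 and 35.9 CPM in wild type and 10.7, 11.5, 13.1, 13.9 and 12.83 CPM in mutants. With vitamin B12 they were 16.6, 18.1, 28.4, 20.9 and 42.7 CPM in wild type and 13.9, 11.7, 13.4, 10.2 and 14.5 CPM in mutants. All 10 mutant libraries lay below all 10 wild-type libraries, and the share of all genes that separate in this way is not given here. In the same mutants dhgd-1 stood higher than in wild type, with overlapping groups and without a call. Its edgeR adjusted p was 0.324 without supplement and 0.5002 with vitamin B12. The log2 fold change was -1.07 without supplement (standard error 0.19, edgeR adjusted p = 0.00189) and -1.004 with vitamin B12 (standard error 0.19, edgeR adjusted p = 0.00996). The latter call was lost without replicate 5 (edgeR adjusted p = 0.147) or 6 (0.0874), without supplemented mutant replicate 6 alone (0.0653), without the series term (0.0799) and in a fit of the 2 groups alone (0.110). Vitamin B12 did not change gtf-2E2 by the test (log2 fold change 0.02 in wild type and 0.09 in mutants). The other 3 protein-coding genes in that intron were not called in any of the 6 comparisons. Where the deletion begins and ends is not given in the sources used here, and its part in the level of gtf-2E2 was not tested.

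**Figure D5:**
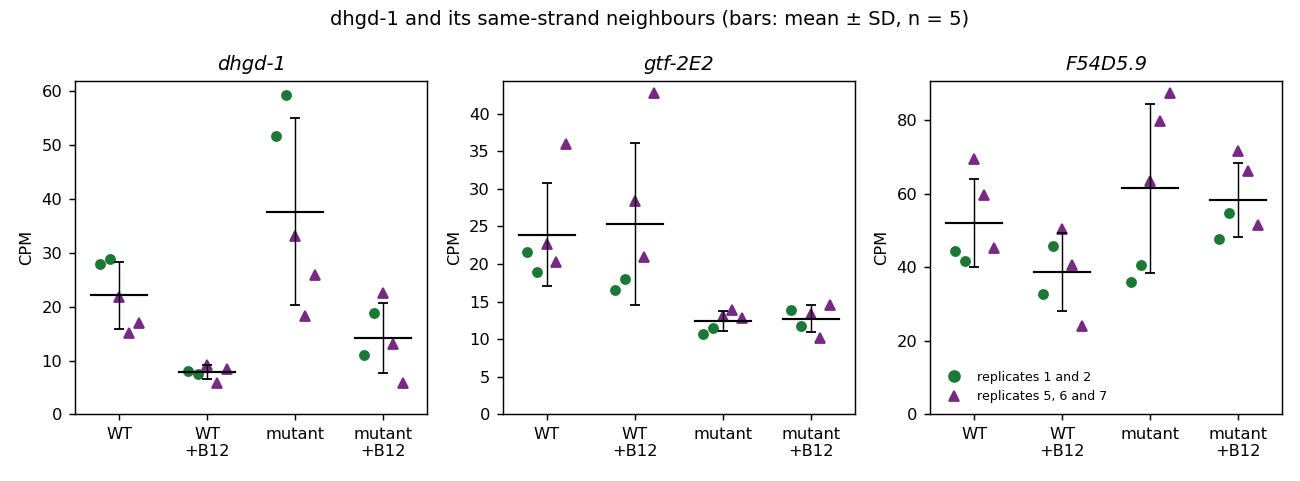
CPM (vertical axis, linear from 0) of dhgd-1, gtf-2E2 and F54D5.9, neighbours on the same strand, by group; circles are replicates 1 and 2, triangles replicates 5, 6 and 7, and bars the mean ± SD (n = 5). The gtf-2E2 values of the 10 mutant libraries lie between 10.2 and 14.5 CPM and those of the 10 wild-type libraries between 16.6 and 42.7 CPM.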

How the data were processed

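Per the labels and the study's methods, the authors deposited whole-number read counts per gene, made from Cel-seq2 libraries by trimming (Trimmomatic 0.32), alignment (STAR) and ESAT counting, leaving out pseudogenes and without normalization. The STAR and ESAT releases, the build, the use of strand and the handling of molecular identifiers are not given in the sources used here. The methods name 2 sequencers. No label assigns them, and the library-name series was used as that batch because it splits the replicates 2 and 3. Of 22736 identifiers, 22497 were matched to a WBcel235 symbol, and positions are those of that annotation.

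Counts were fitted with edgeR 4.0.16 (R 4.3.3; TMM, filterByExpr, glmQLFit and glmQLFTest) on all 20 libraries with group and series as terms. Standard errors are the log2 fold change divided by the square root of F. The 6 comparisons were adjusted separately over 11270 genes. Alternatives were RLE factors, library totals, no filter, no series term, a replicate block, DESeq2 1.42.0, no fold minimum, the 2 groups alone and each replicate or library left out. Ratios used counts plus 0.5. Covariation used log2 CPM (prior count 2) with 100000 permutations within group and series (Python 3.11.15, scipy 1.17.1). Tested on simulated data for vitamin B12 in wild type (10998 genes), the model recovered 50 of 50 genes at a log2 change of -2 and 26 of 50 at -1, with 10 false calls. The simulated counts held no series effect and no effect shared by replicate number, unlike the data. Only genes above a minimum mean count were changed.

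Replicate numbers were taken to pair the libraries: residuals of same-numbered libraries correlated above 0.1 in 30 of 30 pairs of libraries (0.15 to 0.73, median 0.51), against a median of 0.29 for other numbers of the same series, and the source of the pairing is the numbers of the labels. Blocked values stand beside the calls they change and beside the highest correlations. The ratio tests of each comparison were not run with the block.

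The 5 genes, the pathway lists and the tests were chosen with earlier results of these data known. Named were the 5 genes, for each the 3 most similar genes, and called genes of the pathway lists. A planned naming of protein paralogs was not run, since no protein sequences were used here.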

Additional observations from a re-analysis of the deposited data

How the results depend on the processing

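Without the series term, the number of the 5 genes called was 1 in place of 2 between the supplemented strains and 1 in place of 4 for vitamin B12 in mutants. With the replicate block it was 4 between the supplemented strains, 5 in place of 4 for vitamin B12 in mutants and 2 in place of 1 for supplemented mutants against unsupplemented wild type, where RLE factors, no low-count filter, DESeq2 and a fit of the 2 groups alone also gave 2. The interaction count was 1 in place of 0 without the filter and with DESeq2. Leaving out 1 replicate or library gave 1 to 3 genes between the supplemented strains, 3 to 5 for vitamin B12 in wild type, 3 to 4 in mutants and 1 to 2 for supplemented mutants against unsupplemented wild type. The cause of these changes was not tested. The replicate block changed no call of the 5 genes other than those given beside the results.

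With 1 replicate or library left out, the interaction of dhgd-1 ranged from -0.11 (without replicate 5; -0.01 without replicate 6) to 0.36. For gtf-2E2, chosen after seeing the data, the vitamin B12 effect in wild type ranged from -0.15 to 0.15 and the interaction from -0.13 to 0.13, and with library totals the latter was -0.020. Centring on group alone made 8 of 10 correlations pass in place of 0. Centring on group and replicate number, the replicate block, gave 0 and turned alh-8 with dhgd-1 to r = -0.30. With 1 replicate left out, that r ranged from -0.10 to 0.39, and r of ech-6 with alh-8 from -0.12 to 0.52, both lowest without replicate 5. Ratio tests with 1 replicate left out cannot pass the threshold and were given no count. Of the fold changes of the 5 genes and gtf-2E2 under all alternatives, 710 kept direction and call, 24 lost a call, 17 gained one and 5 turned. The shallowest library held 23 counts of dhgd-1, the least of any of the 5 genes.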
